A study of Homo sapiens with 4 samples.

Results

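Peaks that lay at the ends of protein-coding genes and were found only in the library labelled SHP1705 come from a STARR-seq series in the breast cancer line MDA-MB-231, which is triple-negative and mesenchymal. The set was chosen by the deposited summit positions, lengths and overlaps of the peaks. A peak belonged to it when its summit lay on chromosomes 1 to 22 or X within 1000 bp of either end of a protein-coding gene of RefSeq GRCh38.p14, when it was at least as long as the narrowest peak that could be called in the combination, and when it shared no base with a peak of the other 3 lists. Of the 85840 SHP1705 peaks, 8218 met this rule, and the 4 lists together held 223513 merged regions. They made up 82.3% of the SHP1705 gene-end peaks of that length, while 80.2% of all SHP1705 peaks of that length, anywhere in the genome, had no overlap either. The choice therefore used the peak calls themselves, and the absence of a call in the other lists is a description. RefSeq strand was known for 6718 of the 8218 peaks, of which 3975 lay at the transcript end and 2743 at the gene start, while 1500 lay at genes whose strand was not given in the table used. Below, gene-end peak means a peak at either end of a gene, and transcript end means the downstream end alone.

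The cells had received 10 µM SHP1705, a compound known to stabilise the clock repressor CRY2, 100 nM MG132, a proteasome inhibitor, both drugs at these doses (the combination), or DMSO, the vehicle. A plasmid library made from sheared DNA of the same line was transfected after the drugs had been added, and RNA was taken after 8 h. Each treatment had 1 library with 1 peak list. Differences therefore compare libraries, with no spread between replicates and no test. The height of a peak is the deposited pileup, the number of fragments that cover its summit, and the fold is the deposited ratio of that height to the local background.

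In STARR-seq, genomic fragments are cloned into the transcribed part of a reporter plasmid, so that an active fragment is read back as reporter RNA. Messenger RNA of the cell begins at the transcription start and ends at the cleavage site that precedes the poly(A) tail, so both ends of a gene are also the ends of its mRNA. Cryptochromes, the proteins that SHP1705 acts on, repress CLOCK and BMAL1, which bind the E-box in promoters of clock genes such as PER1, NR1D1 and DBP.

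The library labelled SHP1705 stood apart from the others before any selection. It held 118324303 fragments, against 27289266 with MG132, 28331486 with the combination and 29717604 with DMSO. MDA-MB-231 is known to lack CDKN2A, CDKN2B and MTAP, which lie next to each other on chromosome 9. The SHP1705 list had 11 peaks in these 3 genes, the tallest of each gene reaching between 610 and 3289 fragments. MG132 had 1 peak there with 18 fragments, the combination 1 with 70 and DMSO 1 with 28. In CDKN2A itself SHP1705 had 5 peaks and the other 3 lists had 0. Of the peaks described here, 4 lay at these genes. At CDKN2B, a cyclin-dependent kinase inhibitor, the peak at the start held 3289 fragments and the one at the end 675, and at its neighbour CDKN2A the end peak held 409 and the start peak 90. Of 10 stromal matrix and receptor genes that were chosen after their values had been seen, among them COL1A1, COL3A1, DCN and THY1, all 10 had a peak in SHP1705, the tallest of each gene between 391 and 32956 fragments. MG132 had a peak in 9 of them (46 to 278 fragments), the combination in 9 (37 to 745) and DMSO in 8 (55 to 398). Of these 10 genes, PDGFRB, POSTN and FAP held a peak of the set. All 8 mesenchymal and basal markers had SHP1705 peaks (tallest of each gene 2171 to 69679 fragments), as did all 8 luminal markers (51 to 33216), while 5 of 6 blood and liver markers had none. Peaks of the set lay at AXL, CAV2, CD44 and ZEB1 of the first list, at FOXA1, GATA3, PGR and SPDEF of the second and at 0 of the third. The other libraries had marker peaks too. VIM and FN1 reached 69679 and 31724 fragments in SHP1705 and 197 to 472 elsewhere. ESR1 reached 354 in SHP1705, 247 with MG132, 435 with the combination and 567 with DMSO, and PGR 51, 214, 609 and 100 in the same order. ALB of the third list had a peak of 712 fragments with DMSO and none in the other lists. The pileups in this paragraph are not scaled for depth, so they do not compare directly between libraries. The part that the source of this RNA plays in the results below was not tested.

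The starts of 5 genes are printed because their peaks were the tallest of the set at gene starts with a promoter in the table used, and because they show where the peaks begin. Each line gives 130 bases of the RefSeq GRCh38.p14 promoter in the direction of transcription, 100 before the annotated start and 30 after it, and capitals mark the bases under the SHP1705 peak.
HSPA5 (chr9:125241314-125241443, minus strand): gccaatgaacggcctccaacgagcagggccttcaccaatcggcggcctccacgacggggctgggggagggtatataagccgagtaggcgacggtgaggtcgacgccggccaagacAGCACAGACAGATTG
CST3 (chr20:23637926-23638055, minus strand): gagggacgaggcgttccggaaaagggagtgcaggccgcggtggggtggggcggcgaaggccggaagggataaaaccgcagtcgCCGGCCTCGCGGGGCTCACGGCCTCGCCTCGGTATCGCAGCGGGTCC
EGR1 (chr5:138465379-138465508, plus strand): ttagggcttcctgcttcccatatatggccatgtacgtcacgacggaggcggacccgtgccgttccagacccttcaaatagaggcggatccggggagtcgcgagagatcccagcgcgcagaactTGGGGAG
CCN2 (chr6:131951343-131951472, minus strand): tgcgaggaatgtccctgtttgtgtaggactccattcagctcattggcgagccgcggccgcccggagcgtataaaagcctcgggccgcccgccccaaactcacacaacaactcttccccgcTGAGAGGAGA
ID3 (chr1:23559472-23559601, minus strand): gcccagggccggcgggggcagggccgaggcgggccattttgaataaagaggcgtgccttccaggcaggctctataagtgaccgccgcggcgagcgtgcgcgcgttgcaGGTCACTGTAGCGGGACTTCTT

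In these 5 promoters the peak covered 15, 47, 7, 10 and 22 of the printed bases, in the order of the lines. Its upstream edge lay 15 bp inside the gene at HSPA5, 23 bp inside at EGR1, 20 bp inside at CCN2 and 8 bp inside at ID3. At CST3 it lay 17 bp before the start. Most of each promoter therefore lay outside the peak, and 27 to 67 of the 300 bases of the promoter window (250 before the start to 50 after it) were under it.

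HSPA5, which encodes the chaperone BiP of the endoplasmic reticulum, had the tallest peak of the whole set. It ran over chr9:125240714-125241328 (GRCh38), with its summit 191 bp inside the gene, a pileup of 22699 fragments and a fold of 6.90. The tallest peak elsewhere in HSPA5 held 252 fragments with MG132, 218 with the combination and 234 with DMSO, and the gene had a taller SHP1705 peak of 33368 fragments that is not part of the set. CST3, the secreted protease inhibitor cystatin C, followed with 17090 fragments (fold 24.2), its summit 170 bp inside the gene, and no other list had a peak anywhere in CST3. EGR1, an immediate early transcription factor, had 10323 fragments (fold 3.18), and CCN2, a matricellular target of YAP signalling, had 8883 (fold 3.89). In EGR1 the other lists peaked at 72 fragments with MG132, 470 with the combination and 78 with DMSO. ID3, an inhibitor of basic helix-loop-helix factors, had 7120 fragments (fold 23.5), and PDGFRB, a receptor of stromal cells, had 6978 (fold 25.4). CCNI, an atypical cyclin, had 6214, the thioredoxin-binding protein gene TXNIP had 5641, and WLS, which escorts Wnt proteins to the cell surface, had 5115. At LOC124902876, which is named only, the peak held 5719 fragments. All 10 of these summits lay inside the gene, between 108 and 291 bp from its start.

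Of the 2743 peaks at gene starts, 2284 (83.3%, Wilson 95% interval 81.8 to 84.6, for counting error only) had the summit on the transcribed side. The median summit lay 219 bp inside the gene (quartiles 121 and 395 bp), and 53.1% of summits fell between 100 and 400 bp inside it. This band held 16.4% of the 506 start peaks found only in MG132, 15.4% of the 423 found only in the combination and 15.4% of the 311 found only in DMSO. The upstream edge of the SHP1705-only peaks had its median 6 bp inside the gene, and for 1365 of them (49.8%, 47.9 to 51.6) it lay within 100 bp of the start on either side. That was so for 11.3% of MG132-only, 9.93% of combination-only and 11.6% of DMSO-only start peaks. Upstream reach varied, and 689 of the 2743 peaks (25.1%, 23.5 to 26.8) reached more than 250 bp upstream of the start, against 48.4% with MG132, 51.8% with the combination and 46.3% with DMSO. The intervals count peaks within 1 library per treatment and give no spread between libraries. In these 3 measures those of SHP1705-only peaks did not overlap those of the peaks found only with MG132, the combination or DMSO. They did overlap those of the 290 start peaks of SHP1705 that shared bases with another list, of which 49.0% (43.3 to 54.7) had the summit in this band, 50.7% (44.96 to 56.4) had the upstream edge within 100 bp of the start and 28.3% (23.4 to 33.7) reached more than 250 bp upstream. The rule had limited the distance of the summit from the gene end but had used neither its side nor the peak edges relative to the gene.

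**Figure D1:**
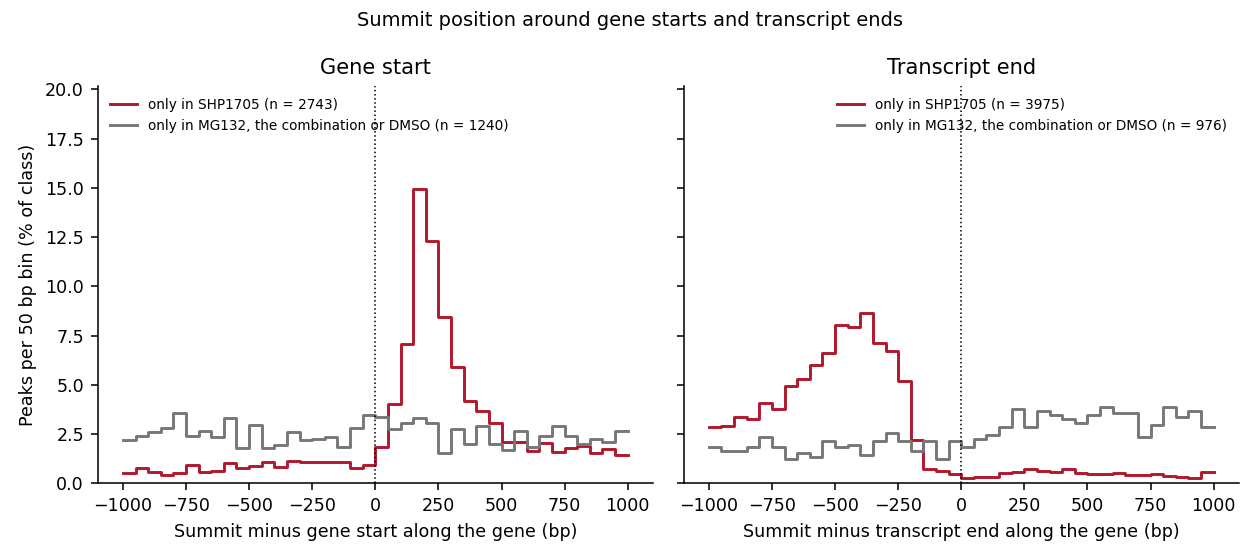
Share of peaks in 50 bp bins of summit position, from 1000 bp before to 1000 bp past the gene start (left) and the transcript end (right), along the direction of transcription, for peaks found only in SHP1705 (red) and for peaks found only in MG132, the combination or DMSO (grey). The red curve is highest 150 to 200 bp inside the start, with 14.9% of 2743 peaks, and 350 to 400 bp before the end, with 8.63% of 3975, while no grey bin exceeds 3.89%.

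At transcript ends the tallest peak lay on ANXA2, a calcium-dependent membrane-binding annexin, at chr15:60347331-60347713, with 15902 fragments, a fold of 31.2 and its summit 377 bp before the end. Elsewhere in ANXA2 the tallest peak held 357 fragments with MG132, 370 with the combination and 610 with DMSO. TMSB10, which encodes the actin-binding peptide thymosin beta 10, had 12398 fragments (fold 30.4) with the summit 159 bp before the end, and no other list had a peak in the gene. Both genes have near-identical copies in the genome, so fragments could be shared with those copies. CLTB, a clathrin light chain, had 6960 fragments, PDZK1IP1, a small membrane protein, 6175, and SLC25A5, which carries ADP and ATP across the mitochondrial inner membrane, 5703. FBLN1, an extracellular matrix fibulin, had 5416, the glucose-6-phosphatase G6PC3 had 5243, and HSP90B1, the HSP90 paralogue of the endoplasmic reticulum, had 4866. Of these 8, CLTB and TMSB10 had no peak of another list anywhere in the gene, and in the other 6 the tallest peak of any other list held 17 to 610 fragments.

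The summit lay outside the gene in 2 of the 20 tallest peaks at transcript ends. At GGCX, the carboxylase that uses vitamin K, it lay 730 bp past the end (5523 fragments, over 2585 bp), and at PLTP, a phospholipid transfer protein, 54 bp past it (4508 fragments). Peaks were named for the nearest gene end, so such a peak can lie in a neighbouring gene. Of the 1004 SHP1705-only summits outside their own gene, 450 lay inside another protein-coding gene. The other 10 of the 20 were DUOX2 (4374 fragments), ZFAND3 (4279), SELENOW (4198), MUC12 (4080), HIGD2AP2 (3987), BANF1 (3887), VKORC1 (3865), ERH (3860), WBP1 (3767) and EVA1B (3737), with summits 170 to 672 bp inside. They span a peroxidase that makes hydrogen peroxide (DUOX2), a selenoprotein (SELENOW), a mucin (MUC12), a chromatin-binding barrier protein (BANF1) and the reductase that recycles vitamin K (VKORC1), so the tallest peaks did not belong to a single pathway.

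Of the 3975 peaks at transcript ends, 3605 (90.7%, 89.7 to 91.6) had the summit inside the gene. The median summit lay 456 bp before the end (quartiles 652 and 299 bp), and the downstream edge had its median 77 bp before it. For 2672 peaks (67.2%, 65.7 to 68.7) the downstream edge lay within 200 bp of the annotated end, against 17.3% of the 411 such peaks found only in MG132, 13.7% of the 343 found only in the combination and 13.1% of the 222 found only in DMSO. SHP1705-only peaks reached past the transcript end in 621 cases (15.6%, 14.5 to 16.8), whereas 68.4% of MG132-only, 73.2% of combination-only and 73.0% of DMSO-only peaks did so. Of the 1126 SHP1705 peaks at transcript ends that overlapped another list, 77.7% (75.2 to 80.0) had the downstream edge within 200 bp of the end and 11.6% (9.89 to 13.6) reached past it, so these traits were not particular to the peaks without overlap. At starts and transcript ends alike the SHP1705-only peaks lay mainly on the transcribed side and began or stopped close to the annotated boundary.

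**Figure D2:**
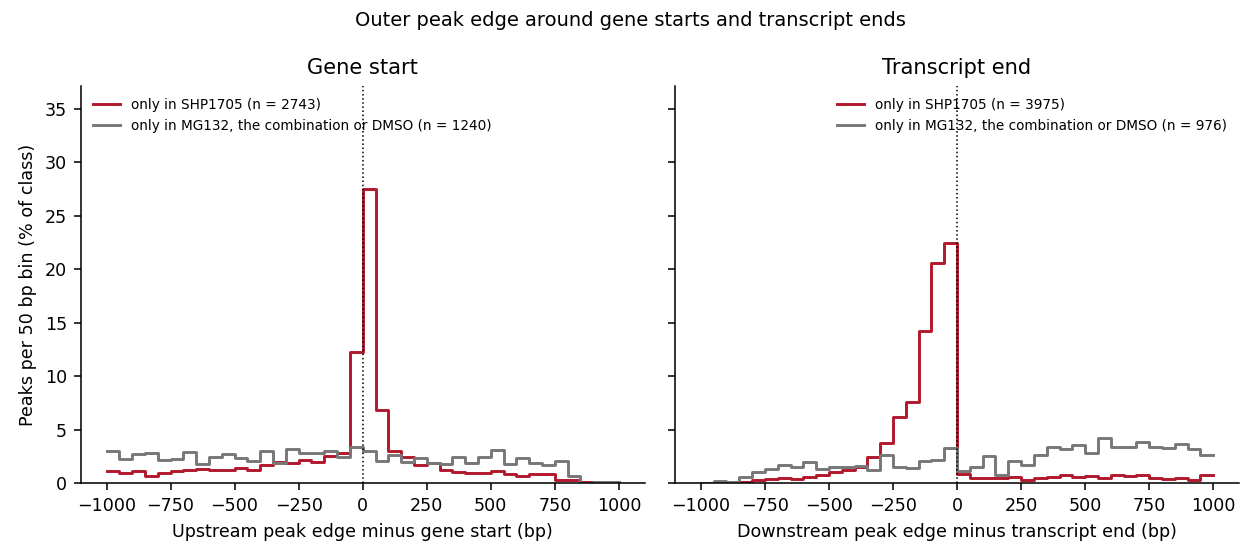
Share of peaks in 50 bp bins of the outer peak edge, which is the upstream edge at gene starts (left) and the downstream edge at transcript ends (right), for peaks found only in SHP1705 (red) and for peaks found only in MG132, the combination or DMSO (grey); edges more than 1000 bp away are not drawn. In red, 27.5% of upstream edges fall in the first 50 bp inside the start and 22.4% of downstream edges in the last 50 bp before the end, while the grey curves stay at or below 4.20% in every bin.

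Over both ends, 7214 of the 8218 summits (87.8%, 87.1 to 88.5) lay inside the gene, against 45.9% of 1145 MG132-only, 42.5% of 944 combination-only and 45.9% of 713 DMSO-only gene-end peaks. Where strand was known, 59.2% (58.0 to 60.3) lay at the transcript end, against 44.8% with MG132, 44.8% with the combination and 41.7% with DMSO. The 1765 SHP1705 gene-end peaks that did overlap a peak of another list were like the set in their side, with 89.0% inside the gene, and lay at the transcript end in a larger share, 79.5% (77.3 to 81.5). Of the 1004 SHP1705-only summits outside their own gene, 450 lay inside another protein-coding gene.

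The share of gene-end peaks with no overlap has to be read against the rest of the list. Of 9983 SHP1705 gene-end peaks of the required length, 8218 (82.3%) overlapped no other list, and the same held for 80.2% of all 71437 SHP1705 peaks of that length, a value close to it. In the other lists the share of gene-end peaks without overlap was 46.3% for MG132, 46.4% for the combination and 39.3% for DMSO, while over all their peaks of that length the shares were 76.7%, 74.5% and 70.2% in the same order. Among peaks found in 1 list only, gene-end peaks made up 14.3% in SHP1705 (14.1 to 14.6), 2.15% with MG132, 2.22% with the combination and 2.26% with DMSO. The SHP1705 peaks that overlapped another list lay at an end of a gene in 12.5% of cases (11.97 to 13.1). For overlapping peaks of the other lists this share was 8.24% for MG132, 7.48% for the combination and 8.19% for DMSO. Nearness to gene ends was thus high in both kinds of SHP1705 peak, and in the other lists it was higher for overlapping peaks than for those found in 1 list.

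Heights within the set spanned a wide range. The median pileup was 309 fragments (10th percentile 68, 90th percentile 1369), or 2.61 per 1000000 fragments of the library. The median was 387 fragments at transcript ends, 226 at gene starts and 293 where strand was not known. Peaks at transcript ends were also longer, with a median of 863 bp, against 557 bp at gene starts. The SHP1705 gene-end peaks that overlapped another list were taller, with a median of 1992 fragments. Peaks found only in MG132, the combination or DMSO were narrower (medians 422, 423 and 426 bp) and had higher folds (medians 20.1, 22.1 and 23.9) than the set (717 bp and 8.30). Their median pileups per 1000000 fragments of their own library, 5.50, 7.06 and 8.38 in the same order, were also higher than the 2.61 of the set.

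The share of SHP1705 gene-end peaks without overlap fell with height, from 92.0% of 1723 peaks under 100 fragments and 91.9% of 2660 peaks of 100 to under 300, through 90.7% of 3091 peaks of 300 to under 1000 and 72.7% of 1747 peaks of 1000 to under 3000, to 18.3% of 597 peaks of 3000 to under 10000 and 4.24% of 165 peaks of 10000 or more. The 7 peaks in the last class were those at HSPA5, CST3, ANXA2, TMSB10, PI3, MCL1 and EGR1. PI3, a secreted elastase inhibitor, had 11469 fragments, and MCL1, an anti-apoptotic BCL2 relative, had 11347, both at genes without a strand in the table used. The next of these were PTMS, an acidic nuclear peptide, with 9929 fragments, and CCND1, which encodes cyclin D1, with 7968.

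Position also moved with height inside the set. Divided by pileup into 5 groups of equal size, from 28 to 102 fragments in the lowest to 884 to 22699 in the highest, the peaks had their summit inside the gene in 76.7%, 85.2%, 90.9%, 93.1% and 93.0% of cases. The share at the transcript end was 46.5%, 52.7%, 60.5%, 66.3% and 69.7% in the same order. Among gene starts, the share with the upstream edge within 100 bp of the start was 27.8% in the lowest group and 70.3% in the highest. Low peaks of the set were thus the least sharply placed.

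**Figure D3:**
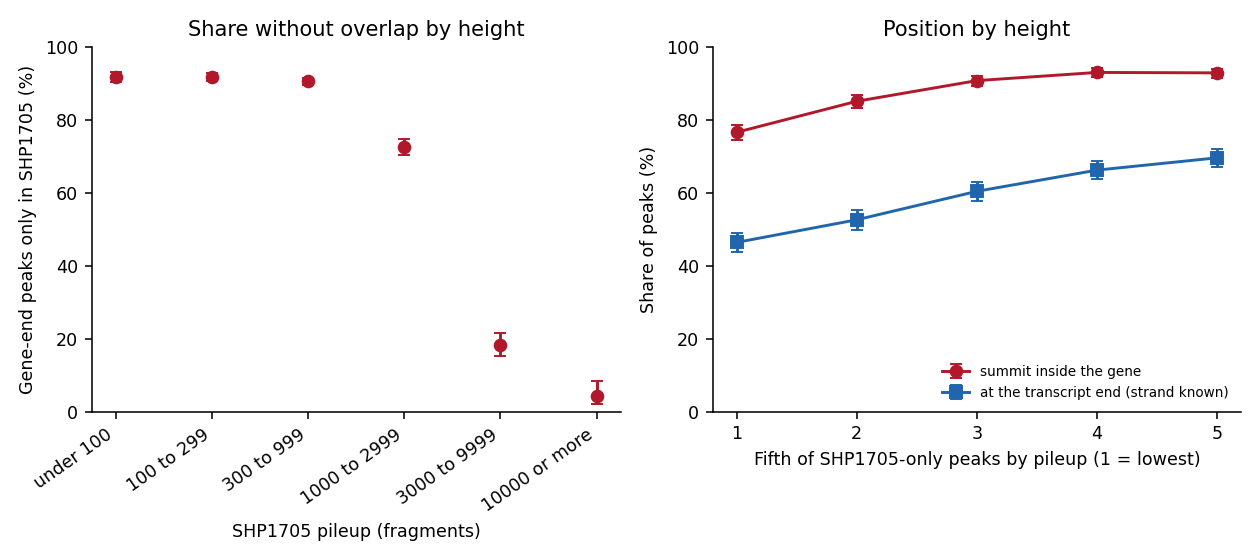
Left, share of SHP1705 gene-end peaks of the required length that overlap no other list, by pileup class in fragments; right, share of SHP1705-only gene-end peaks with the summit inside the gene (red circles) and, where strand is known, at the transcript end (blue squares), by pileup in 5 groups of equal size. Bars are Wilson 95% intervals for counting error, which reach from 2.07 to 8.50% at the class of 10000 or more fragments, and both position shares are higher in the top group (93.0 and 69.7%) than in the bottom group (76.7 and 46.5%).

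The deeper SHP1705 library could hold peaks too low to be called elsewhere, so pileups were scaled by the ratio of fragments. Scaled to the depth of MG132, 82.0% of the set reached the 10th percentile of that list's own gene-end pileups (22 fragments) and 39.7% reached their median. Scaled to the combination, 83.2% reached the 10th percentile (22 fragments) and 33.2% the median, and scaled to DMSO, 82.0% reached the 10th percentile (24 fragments) and 36.4% the median. A second scale came from the gene-end peaks that SHP1705 shared with another list, in which the other list's pileup per 1000000 fragments was a median 0.0439 of that in SHP1705 for MG132 (1174 peaks), 0.0346 for the combination (964) and 0.0379 for DMSO (979). With the raw ratio of these shared peaks, the median height of the set corresponded to 3.13 fragments with MG132, 2.56 with the combination and 2.94 with DMSO, below the lowest gene-end pileup called there (12, 12 and 13 fragments). By this scale 12.9% of the set would reach that lowest pileup with MG132, 9.02% with the combination and 10.1% with DMSO. These shared peaks were far taller in SHP1705 than the set, with medians of 2939.5 fragments for those shared with MG132, 3539 with the combination and 3619 with DMSO, against 309. The ratio also differed with position. For shared peaks with the summit outside the gene, the ratio per 1000000 fragments was 0.847 with MG132 (112 peaks), 0.942 with the combination (90) and 0.0611 with DMSO (80), by which 91.9%, 94.5% and 20.9% of the set would reach the lowest pileup in the same order. For those with the summit inside the gene, these shares were 12.6%, 8.65% and 9.77%. In the set itself 87.8% of summits lay inside the gene. The scales thus differed in how much of the set stood above the heights called in the other lists. The second scale rests only on peaks called in both lists, and which scale holds for the set was not tested.

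The 8218 peaks lay at 7090 of 19974 protein-coding genes (35.5%). Of these genes 5986 had 1 such peak, 1080 had 2 and 24 had 3 or more. By chromosome the share of genes ran from 27.9% on X to 39.7% on chromosome 16. A peak of another list lay somewhere in the gene for 52.0% of these 7090 genes with MG132, 46.4% with the combination and 42.1% with DMSO, and 2171 genes (30.6%) held no peak of the other 3 lists. The nearest peak of another list was a median 6126 bp away, and 924 peaks of the set (11.2%) had one within 1 kb.

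Peaks of the set at both the start and the transcript end were found at 861 genes. At 628 of them the end peak was the taller and at 233 the start peak, with a median end over start ratio of 1.82 (quartiles 0.942 and 4.50). Ranked by the lower of the pair, CLTB came first, with 6960 fragments at the end and 4061 at the start. SMPD1, the lysosomal acid sphingomyelinase, had 3303 at the end and 2780 at the start, and CLEC11A, a secreted bone growth factor, had 2525 at the end and 2736 at the start. CD68, a lysosomal membrane protein best known from macrophages, had 2354 at the end and 3181 at the start, and VKORC1 had 3865 and 2192 in that order. The taller side thus differed between these 5 genes, and in CLTB, SMPD1, CLEC11A and VKORC1 no other list had a peak anywhere in the gene.

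**Figure D4:**
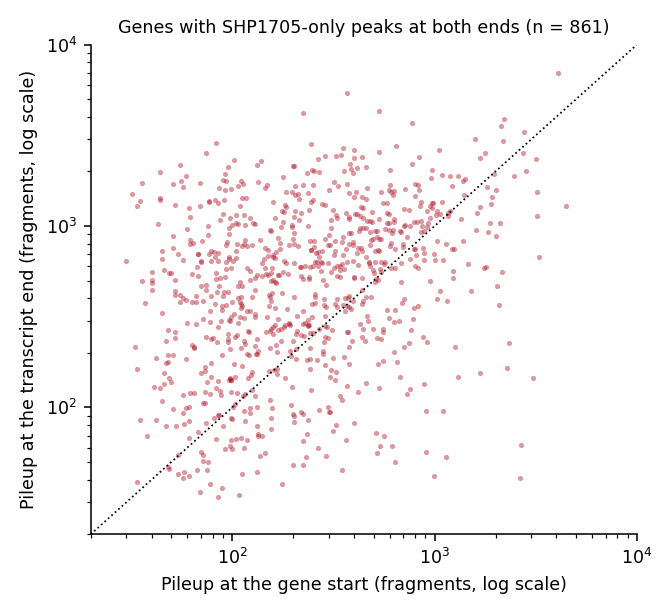
Pileup in fragments of the SHP1705-only peak at the transcript end (vertical, log scale) against that at the gene start (horizontal, log scale) for the 861 genes with both, with a dotted line of equal height. More points lie above the line (628) than below it (233), and the median ratio is 1.82.

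Several gene groups held SHP1705-only peaks at a larger share of their members than the 35.5% of all genes. Of 20 p53 target genes 13 (65.0%, 43.3 to 81.9) held one, the tallest at BBC3, a pro-apoptotic BH3 protein, with 1393 fragments, at the DNA repair factor XPC with 1384 and at the RNA-binding protein ZMAT3 with 1164. Of 28 cell cycle genes 18 (64.3%, 45.8 to 79.3) held one, led by CCND1, by the kinase gene CDK4 with 1939 fragments at its end, by CCND3 with 1793 and by the replication clamp PCNA with 1522. Of 24 NF-kB and inflammatory genes 15 (62.5%, 42.7 to 78.8) held one, led by the monocyte chemokine CCL2 with 4484 fragments, the neutrophil chemokine CXCL1 with 2640 at its start, the NF-kB subunit RELA with 2128 and its inhibitor NFKBIA with 1762 at their ends. Of 20 genes of the ATF4 and unfolded protein response 12 (60.0%, 38.7 to 78.1) held one, among them the amino acid transporter chain SLC3A2 with 2802 and the pseudokinase TRIB3 with 1422 at their ends, and the transcription factor XBP1 with 1181 at its start. Of 77 genes for mitochondrial ribosomal proteins 43 (55.8%, 44.7 to 66.4) held one, with 34 of the 51 peaks at transcript ends. These are counts of genes in 1 library, and the median height in the 5 groups was 400.5, 527, 613, 410 and 600 fragments, against 309 for the whole set. Counting SHP1705 gene-end peaks with or without overlap, the 5 groups had one at 15, 21, 19, 17 and 55 genes. Of all 19974 genes, 9062 had one. By this count 21 of 25 heat shock, 22 of 24 lysosome and 25 of 28 mesenchymal genes, described below, had one, but 9 of 25 respiratory chain genes. The share holding a peak of the set thus also depended on how many genes had only overlapping peaks.

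In 6 further groups the interval included the share of all genes. The 32 genes for subunits of the proteasome, the complex that MG132 inhibits, held such a peak at 14 (43.8%, 28.2 to 60.7), with PSMD3, a lid subunit, at 3198 fragments at its start and 1142 at its end, and PSMA1, a core subunit, at 842 at its end. Of 25 heat shock and chaperone genes 9 (36.0%) held one, led by HSPA5 and HSP90B1, while 14 had an SHP1705 gene-end peak that overlapped another list. Of 27 cytoskeleton and motility genes 5 (18.5%, 8.18 to 36.7) held one and 15 had an overlapping SHP1705 gene-end peak, so more genes of this group had an overlapping peak than one of the set. Cytosolic ribosomal protein genes held one at 31 of 79 (39.2%), the tallest at RPS2 with 5950 fragments, and many of these genes have processed copies with which fragments could be shared. Of 19 NRF2 genes 9 (47.4%) held one, led by sulfiredoxin (SRXN1, 2156 fragments) and by KEAP1, the NRF2 inhibitor, with 1758. Of 24 interferon response genes 8 (33.3%) held one, led by the membrane protein gene IFITM2 with 4107 and the ubiquitin-like modifier ISG15 with 2326.

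The next 7 groups also had intervals that included the 35.5% of all genes. Of 18 glycolysis genes 8 (44.4%) held a peak of the set, led by lactate dehydrogenase B (LDHB, 2864 fragments), hexokinase 2 (HK2, 2632) and phosphofructokinase (PFKL, 2557), each at its transcript end. Of 25 respiratory chain genes 6 (24.0%) held one, led by SDHD, a membrane anchor of succinate dehydrogenase, with 2858. Of 23 AP-1 and immediate early genes 8 (34.8%) held one, and after EGR1 and CCN2 the tallest was at FOSL2, an AP-1 subunit, with 3234 at its start. Of 24 lysosome and secretory genes 9 (37.5%) held one, led by the protease genes CTSB (4605) and CTSL (1940). Of 25 translation factor genes 6 (24.0%) held one, led by EIF3B with 1408, and of 29 chromatin and RNA processing genes 8 (27.6%) did, led by the RNA helicase DDX17 with 2675 at its start. Of 71 replication-dependent histone genes 18 (25.4%, 16.7 to 36.6) held one, the tallest at the linker histone H1-2 with 2430. Apart from these 7 groups, 211 of 517 zinc finger genes (40.8%, 36.7 to 45.1) held one, with an interval that lay above 35.5%. Of 386 solute carriers 153 did (39.6%, 34.9 to 44.6), with an interval that included it.

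The 28 mesenchymal and basal breast genes held a peak of the set at 14 (Wilson interval 32.6 to 67.4%), and 12 of the 14 peaks lay at gene starts, whereas gene starts made up 2743 of the 8218 peaks of the set. The tallest were at MMP14, a membrane-bound matrix protease, with 4828 fragments 175 bp inside the start, at COL4A2, a basement membrane collagen, with 4563, and at LOX, which crosslinks collagen, with 2568. More start than end peaks were also held by the heat shock (8 against 3) and cytoskeleton genes (4 against 1), while cell cycle genes had 4 against 13. In 16 of the 28 mesenchymal and basal genes an SHP1705 gene-end peak overlapped another list. Over all genes, 79.5% of such overlapping peaks with a known strand lay at transcript ends. The part of this in the share at starts was not tested. The 22 luminal genes held one at 10 (45.5%), with the receptor ERBB3 at 2143 fragments. At the low end, 17 of 392 olfactory receptor genes (4.34%, 2.73 to 6.83) held a peak of the set, the tallest with 223 fragments at OR1L3, and 1 of 23 blood and liver genes did, HBA2 with 104. Keratin and keratin-associated genes held one at 16 of 152 (10.5%). The olfactory, keratin-associated, blood and liver genes are ones known to be silent or low in most epithelial cell lines.

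**Figure D5:**
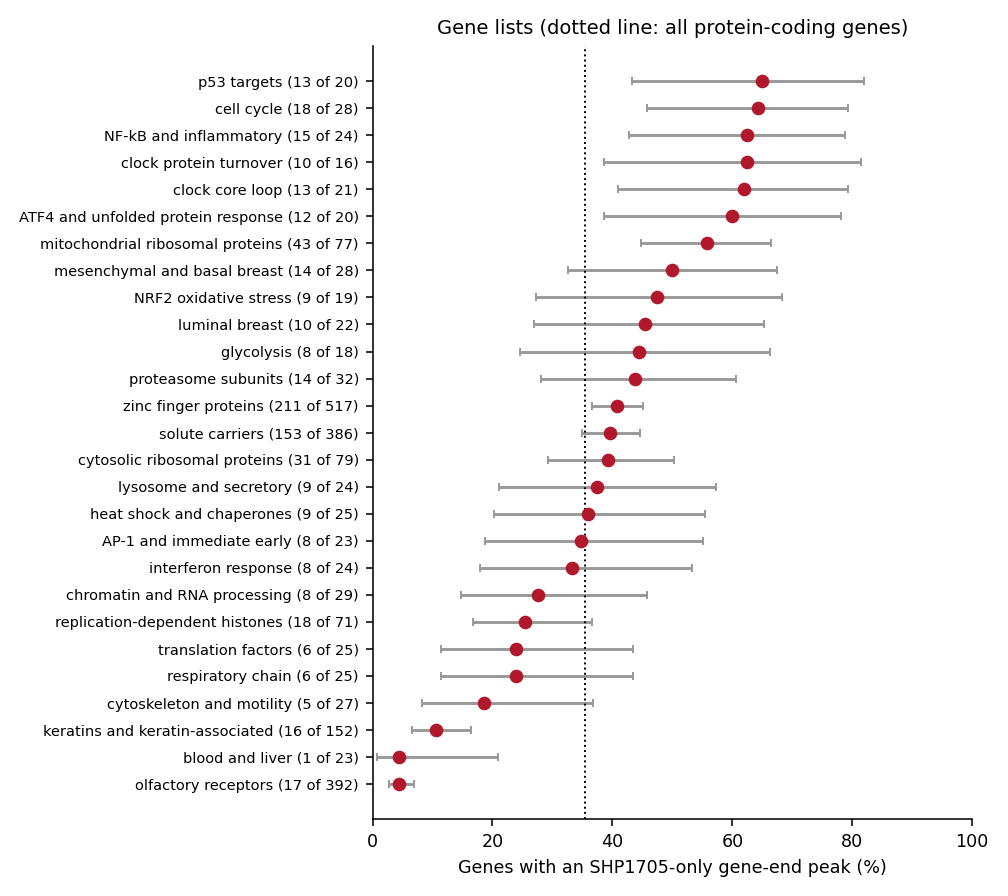
Percentage of genes of each list or family with at least 1 SHP1705-only gene-end peak (red points) with Wilson 95% intervals for counting error (grey bars), sorted from high to low; the dotted line is the 35.5% of all 19974 protein-coding genes. The lists run from p53 targets (65.0%) to olfactory receptors (4.34%).

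Of 21 genes of the clock core loop, 13 (61.9%, 40.9 to 79.2) held an SHP1705-only gene-end peak, against 35.5% of all genes, with 12 of their 18 peaks at transcript ends and 5 at starts. Their median height was 402.5 fragments, against 309 in the whole set. CLOCK, PER3, RORB, HLF, NFIL3, BHLHE40, BHLHE41 and TIMELESS were the 8 genes of the list without one. Counting SHP1705 gene-end peaks with or without overlap, 14 of the 21 genes had one, beside 9062 of all 19974 genes. Among the repressors, CRY2, the cryptochrome that SHP1705 is known to stabilise, had 675 fragments at its end and 82 at its start. CRY1 had 408 at its end and 456 at its start. PER1 had 409 at its end and 79 at its start, PER2 had 76 at its end, and CIART, a repressor of CLOCK and BMAL1, had 103 at its end. None of these was near the tallest peaks of the set.

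Among the activators, BMAL1 had 189 fragments at its end and NPAS2, a paralogue of CLOCK, had 397 at its end. The nuclear receptors of the second loop had more: NR1D1, which represses BMAL1, had 1255 at its end and 442 at its start, and NR1D2 had 915 at its end. RORA, which activates BMAL1, had 156 at its end. Of the D-box factors, DBP had 778 fragments with the summit 81 bp past its end and 112 at its start, and TEF had 729 at its end. The summit of the 778 fragments lay outside DBP and was named for it only as the nearest gene end, so this height need not belong to DBP. NR1D2 had no peak of another list anywhere in the gene. In NR1D1 the combination had a peak of 362 fragments and MG132 and DMSO had none, in CRY2 MG132 had 240 and the other 2 none, and in PER1 MG132 had 44 and the other 2 none. The tallest peaks of other lists in CRY1 held 92 fragments in MG132 and 369 in the combination, and there was none in DMSO. Because depth differs between libraries, these counts do not compare directly. Per 1000000 fragments of each library, the tallest SHP1705 peak in CRY1 was 3.85, against 3.37 in MG132 and 13.0 in the combination. In CRY2 it was 5.70, against 8.79 in MG132, and in NR1D1 10.6, against 12.8 in the combination. In PER1 the SHP1705 peak was the higher, with 3.46 against 1.61 in MG132.

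Of 16 genes for turnover of clock proteins, 10 (62.5%, 38.6 to 81.5) held a peak of the set, again beside 35.5% of all genes. With or without overlap, 11 of the 16 had an SHP1705 gene-end peak. CUL1, the scaffold of a family of ubiquitin ligases, had 1148 fragments at its end and 114 at its start. SKP1, an adaptor of these ligases, had 48 at its start. The kinase genes GSK3B and GSK3A had 1077 at the start and 952 at the end, and GSK3A a further 597 at its start. Casein kinases followed with 916 at CSNK1D, 232 at the start of CSNK1E and 91 at the end of CSNK2A1. DDB1, an adaptor of another ubiquitin ligase, had 249 at its start, and the deubiquitinase USP2 had 121 at its end. Larger SHP1705 peaks that are not in the set lay in CSNK1D (4530 fragments), SKP1 (5596) and DDB1 (3281).

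Promoter letters were read for the 13792 genes whose promoter start in the table used was the annotated gene start. Of these genes, 2085 had a summit of the set inside the gene at its start, and 2504 had one inside at the transcript end and none at the start. Each motif was searched for on its own, on both strands of 300 bases. The E-box CACGTG was found in 10.8% of start-peak promoters (9.58 to 12.2), in 9.98% of end-peak promoters (8.87 to 11.2) and in 8.95% of all promoters (8.49 to 9.44). The D-box TTANGTAA was found in 1.20%, 1.32% and 1.54% in the same order. The GC box GGGCGG was found in 74.5%, 68.2% and 58.5%, the ETS motif CCGGAAG in 18.0%, 19.5% and 14.6%, and the cAMP response element TGACGTCA in 3.93%, 2.92% and 2.70%. TATAAA was found in 6.43%, 5.95% and 10.0%, the AP-1 motif TGANTCA in 3.60%, 4.71% and 5.78%, and CCAAT in 37.3%, 36.9% and 37.1%. The ROR element TAGGTCA was found in 1.20%, 1.12% and 1.52%, the YY1 motif AAGATGGC in 4.60%, 5.55% and 4.11%, and the NF-kB motif GGGANTTCC in 2.25%, 2.32% and 2.15%. The heat shock element GAANNTTC was found in 4.03%, 4.71% and 5.56%, the antioxidant element TGACNNNGC in 14.7%, 14.2% and 14.6%, and the interferon-stimulated response element in 2.83%, 3.04% and 3.18%. The NRF1 motif was found in 2.06% of start-peak promoters and in 1.84% of all. Of the 15 motifs, the GC box thus had the largest difference in share between start-peak promoters and all promoters. The median GC content was 66.3% for start-peak promoters, 65.0% for end-peak promoters and 62.7% for all. The part of GC content in these shares was not tested. A match describes letters in this window and not binding.

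The rule's limits cut through a continuous range. Just inside the length limit were the peaks at WLS (5115 fragments), CHMP4B (1967) and PDIA4 (995), and just outside it, 1 bp shorter, those at TTYH3 (1382) and RBM39 (1353). There were 189 peaks of the set within 10 bp above this limit and 196 SHP1705-only gene-end peaks within 10 bp below it. Just inside the distance limit were MED8 (1000 bp, 482 fragments), RAB34 (999 bp, 1909) and TRIM59 (999 bp, 246), and just outside it, 1 bp farther, SLC9A9 (343), KMT5B (161) and FCRL6 (80). By fold, the set was led by WLS and C16orf90 (both 32.3), C4orf36 and LMAN2 (both 32.0), HIGD2AP2 and TMED7-TICAM2 (both 31.9), PAFAH1B1 (31.8), OSTCP2 and LOC107984936 (both 31.6) and SLC38A10 (31.3). These peaks were at most 670 bp long, and 2 of them, at WLS and HIGD2AP2, were also among the tallest named above.

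Gene names of the peaks carry a limit where genes lie close together. Of the 8218 summits, 1123 (13.7%) lay within 1000 bp of the ends of 2 or more genes, and each was named for the nearest. Of the 1085 with exactly 2 genes in reach, 364 were within reach of 2 gene starts, 261 of 2 transcript ends and 133 of a start and a transcript end, and in the other 327 a strand was not known or a gene was reached at both ends. An annotated pseudogene was overlapped by 118 peaks (1.44%), against 2.27% of the SHP1705 gene-end peaks that overlapped another list, and a miRNA hairpin by 44.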

How the data were processed

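STARR-seq peak lists of 4 libraries, 1 per treatment, were analysed. The submitters' processing notes name MACS2, Bowtie2, Trimmomatic and FastQC and the hg38 build. Other than that of MACS, their versions were not given in the sources used here. According to the headers of the files, MACS 2.2.6 called peaks in each library alone at a q limit of 0.01, with no control library, duplicates kept, a local background over 10000 bp and a minimum width of 299 bp in SHP1705, 354 bp in MG132, 355 bp in the combination and 346 bp in DMSO. The signal deposited by the authors is the pileup at the summit, not scaled for depth. The fold is the ratio to the local background as deposited by the authors. The −log10 p and −log10 q values are those the authors' caller deposited, and no result rests on them.

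From these files, peaks were matched to the RefSeq GRCh38.p14 gene table, and strand and promoters came from RefSeq promoter sequences, which cover 15812 of 19974 protein-coding genes. The minimum length of the set was 355 bp, and overlap meant at least 1 shared bp. Shares have Wilson 95% intervals for counting error alone, because each treatment has 1 library. Duplicate fragments were kept and need not be separate molecules. Scripts ran in Python 3.11.15 with pandas 2.3.3, numpy 2.4.6, scipy 1.17.1 and matplotlib 3.10.9 and were tested on simulated peaks. Named are the 20 tallest peaks at transcript ends and 10 at starts, the 10 highest folds, up to 4 per gene list, peaks at clock genes, the 5 genes with the tallest pairs and 3 on each side of each limit, of which a few are not reported here. The stromal genes, the CDKN2A neighbourhood, and the tallest peaks at genes without strand were named after values were seen. The peak set, the 21 gene lists, 6 families and 15 motifs were chosen with earlier results of these data known. Alternatives changed the distance, length, overlap, fold and list length. No genome sequence was used, so peaks themselves are not printed.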

Additional observations from a re-analysis of the deposited data

How the results depend on the processing

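With 1 library per treatment no spread between replicates is known. No paired analysis was possible because each treatment has 1 library. Depth differs between libraries, and the limit set on scaled heights changes how much of the set reaches it. With the median of DMSO gene-end pileups as the limit, 36.4% of the set reached it, against 82.0% with the 10th percentile. The count of 8218 peaks was 5136 with summits within 500 bp of a gene end and between 6028 and 11584 under the other 7 alternatives, and the 7090 genes became 4705 at 500 bp and between 5426 and 9220 otherwise. The share of SHP1705-only peaks at a gene end, 14.3%, was 13.3% with no minimum length, 20.3% from 450 bp, 14.7% with an overlap of at least 50% of the peak, 19.1% from a fold of 5 and 20.1% with lists of equal length. The share at the transcript end, 59.2%, was 50.3% within 500 bp, 62.9% within 2000 bp, 56.4% with no minimum length, 63.8% from 450 bp, 60.6% with 50% overlap, 61.4% with equal lists and 61.0% for peaks with 1 gene in reach, an alternative chosen after seeing the data. The share inside the gene, 87.8%, was 88.7% within 500 bp, 85.8% within 2000 bp, 89.1% from 450 bp, 90.7% from a fold of 5, 90.4% with equal lists and 89.1% with 1 gene in reach. The median height, 2.61 per 1000000 fragments, was 2.42 within 2000 bp, 2.42 with no minimum length, 2.99 from 450 bp, 2.81 with 50% overlap, 3.50 from a fold of 5 and 3.60 with equal lists. In each of these alternatives most summits lay inside the gene.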
